A study of Mus musculus with 12 samples.

Results

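Inguinal white adipose tissue (IWAT), the subcutaneous fat of the groin, was compared with epididymal white adipose tissue (EWAT), the intra-abdominal fat that lies along the epididymis. The comparison used the 3 IWAT and the 3 EWAT libraries, chosen by their titles, which are 6 of the 12 adipose RNA-seq libraries of the series. All 6 came from male wild-type C57BL/6J mice of 6 to 10 weeks on a standard low-fat rodent diet, and every tissue had been surgically denervated. Innervated tissue was not analysed here, so the groups differ by depot and share the denervation. The other 6 libraries, 3 of retroperitoneal white fat (RWAT) and 3 of interscapular brown fat (BAT), are used only to place single genes. Nothing in the labels tells whether the replicates were different animals, so the spread behind each p-value may be technical.

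White fat stores triglyceride in adipocytes and also holds progenitor cells, vessels, nerves and immune cells. Subcutaneous and visceral depots arise from different embryonic mesenchyme, and their adipocyte progenitors keep distinct sets of developmental transcription factors in the adult. Inguinal fat of the mouse can turn on Ucp1 in beige adipocytes, and epididymal fat is covered by a sheet of mesothelium, an epithelium-like layer that inguinal fat lacks. In bulk tissue, fewer cells of a type and less RNA per cell cannot be told apart.

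The 6 libraries held 15960920 to 25633413 estimated counts. Levels are given as TMM-scaled CPM, that is, counts scaled by the library total times its TMM factor. This factor was 0.721, 0.847 and 1.15 in IWAT replicates 1 to 3, and 1.1, 1.12 and 1.15 in EWAT replicates 1 to 3. The CPM of all genes therefore do not add to the same total in each library, and a summed level is not a share of the counts. A count of 0 allows up to 3 counts in a library, which is 0.134 to 0.179 CPM on the TMM scale and covers counting error only. The labelled tissue was checked against 14 general adipocyte markers, whose summed level was 50732, 44509 and 11796 CPM in IWAT replicates 1 to 3, against 10731, 12434 and 6421 CPM in EWAT replicates 1 to 3. IWAT replicate 3 therefore lay inside the EWAT range of these markers and far below the other IWAT libraries. On the first principal component, which held 59.9% of the variance, IWAT replicates 1 to 3 scored 115, 73.8 and −6.66, against −46.1, −63.6 and −72.3 in EWAT. Mitochondrial transcripts made up 12.1%, 10.2% and 4.40% of the counts in IWAT and 4.87%, 4.57% and 3.56% in EWAT. The EWAT libraries held transcripts of epididymal and male germ cell genes, and the source of this RNA was not tested. Of 18 epididymal and male germ cell genes, the summed level was 0.758, 0.775 and 1.09 CPM in IWAT, against 1782, 280 and 65.7 CPM in EWAT replicates 1 to 3. Results are therefore also given without IWAT replicate 3 and without EWAT replicate 1.

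Across 18086 genes tested with edgeR, 102 were called at an adjusted p under 0.05, which is 0.564% of genes. Of these, 46 (0.254%) were higher in IWAT and 56 (0.31%) were lower. In all 102 the IWAT and EWAT libraries did not overlap, as was also the case for 25% of all genes tested. An unadjusted p under 0.05 was reached by 3901 of the 18086 genes (21.6%). Among the called genes were major urinary protein, thermogenic and subcutaneous developmental genes on the higher side and mesothelial and keratin genes on the lower side. The lowest log2 fold change was that of the processed pseudogene Gm12918, chosen after its values were seen, which had no count in any IWAT library, against 53.9, 56.9 and 76.3 CPM in EWAT, at least 349-fold higher in EWAT against the floor of 3 counts per library (adjusted p = 0.00848). On the scale of all 12 libraries, Gm12918 held 0, 0 and 0 CPM in RWAT and 84.5, 20.4 and 30.7 CPM in BAT. A batch that divided the depots in this way and the depots themselves cannot be told apart. The posterior standard deviation of Gm12918 was 11.4% of its count. A gene near 0 in one depot passed the filter on low counts through the other depot, so counts over such members only describe them. The number of calls rested on single libraries. Without IWAT replicate 3, 3998 of 19699 genes (20.3%) were called, 2658 (13.5%) higher and 1340 (6.8%) lower, with all 102 among them. Without EWAT replicate 1, 813 of 19622 genes (4.14%) were called, 86 (0.438%) higher and 727 (3.71%) lower. Only 16 were called without IWAT replicate 1, 1 without IWAT replicate 2 (Mmp3), 15 without EWAT replicate 3 and 0 without EWAT replicate 2, where 2377 genes had an unadjusted p under 0.05. Of the 49 called genes named below, 13, 1, 49, 48, 0 and 10 were called without IWAT replicates 1, 2 and 3 and EWAT replicates 1, 2 and 3 in turn, with adjusted p up to 0.396, and none reversed.

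**Figure D1:**
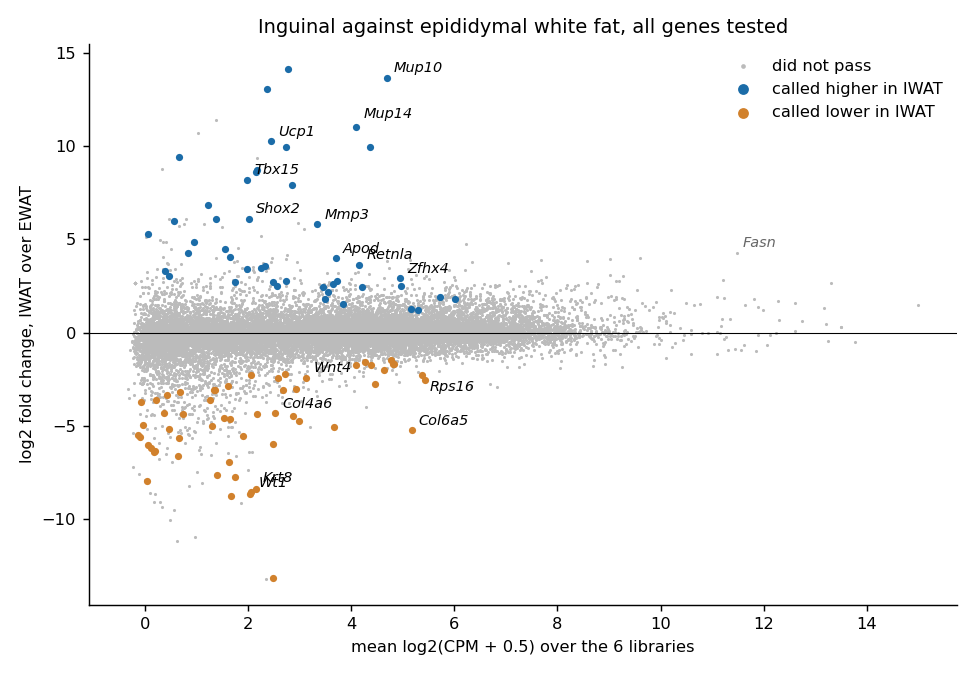
Log2 fold change of IWAT over EWAT against the mean level over the 6 libraries, on the log2(CPM + 0.5) scale, for the 18086 genes tested. Blue points are the 46 genes called higher in IWAT and orange points the 56 called lower; grey points, Fasn among them, did not pass.

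Developmental genes of subcutaneous fat were higher in all 3 IWAT libraries, replicate 3 included. Of 12 listed genes 11 were tested, 6 rose (0.254% of all genes) and 5 did not pass. The median log2 fold change was 2.93, against −0.0076 over all genes. In 10 of the 11, every IWAT library lay above every EWAT library, as did 12.3% of all genes. Tbx15, a T-box transcription factor of subcutaneous preadipocytes (chromosome 3, 99240381 to 99354259 on GRCm38), had 29.4, 22.7 and 28.2 CPM in IWAT, against 0.0553, 0.178 and 0 CPM in EWAT. The fitted log2 fold change, 8.22 (SE 0.60), had an adjusted p of 0.00848. Shox2, a short-stature homeobox factor of limb and subcutaneous mesenchyme, had 30.9, 17.6 and 15.8 CPM in IWAT, against 0.442, 0.401 and 0.0533 CPM in EWAT. EWAT was close to 0 for both genes and the groups were far apart. Its log2 fold change was 6.12 with an SE of 0.63 (adjusted p = 0.023). Zfhx4, a large zinc finger homeobox factor, had 85.7, 91.5 and 72.8 CPM in IWAT, against 13.3, 10.2 and 9.27 CPM in EWAT. On the log2 scale the difference was 2.93 (SE 0.21, adjusted p = 0.00848). Tbx5, a T-box factor of the limb field that was chosen after its values were seen, had 1.79, 3.04 and 1.42 CPM in IWAT, against 0.221, 0.223 and 0.16 CPM in EWAT. The fitted log2 difference was 3.32 (SE 0.47, adjusted p = 0.0462). The Shox2 promoter is shown because the gene separated the depots in every library. It is the RefSeq window from 250 bases before to 50 after the start, chr3:66981722-66982021, minus strand, build GRCm38.p6. Its single match to the TATA motif TATANA, at position −203 from the start, is in capitals.
Shox2: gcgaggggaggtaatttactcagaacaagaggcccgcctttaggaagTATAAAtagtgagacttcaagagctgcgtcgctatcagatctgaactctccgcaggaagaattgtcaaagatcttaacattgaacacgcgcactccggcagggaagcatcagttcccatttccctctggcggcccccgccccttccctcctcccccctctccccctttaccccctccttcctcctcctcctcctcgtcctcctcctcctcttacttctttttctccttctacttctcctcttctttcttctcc

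Among 39 homeobox genes of the Hox clusters, which set position along the body axis, 26 were tested. Of these, 3 rose (0.254% of all genes) and 23 did not pass (median log2 fold change 0.20). The 3 were paralogues of groups 9 and 10. Hoxc10 had 11.5, 10.4 and 6.22 CPM in IWAT, against 0.774, 0.223 and 0.692 CPM in EWAT. IWAT differed from EWAT by 4.06 on the log2 scale (SE 0.54, adjusted p = 0.0422). Hoxa10 had 14.4, 10.7 and 6.55 CPM in IWAT, against 1.38, 0.624 and 1.01 CPM in EWAT. In the fit the log2 fold change came to 3.39 (SE 0.46, adjusted p = 0.0422). Hoxa9 had 15, 15.7 and 10.1 CPM in IWAT, against 1.44, 0.668 and 1.54 CPM in EWAT. The fit put the log2 fold change at 3.48 (SE 0.41, adjusted p = 0.0306). For each of the 3, IWAT replicate 3 was the lowest IWAT library and still lay above every EWAT library. Without IWAT replicate 3, 6 of 28 Hox genes were called higher and 0 lower, against 13.5% and 6.8% of all genes. All developmental genes named in these paragraphs lost their call without EWAT replicate 2 (adjusted p up to 0.22) and without IWAT replicate 2 (up to 0.324), while their log2 fold changes stayed between 2.82 and 9.62. Of these 7 calls, 5 were also lost without IWAT replicate 1 (Tbx15 and Zfhx4 kept) and 4 without EWAT replicate 3 (Tbx15, Shox2 and Zfhx4 kept).

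Mesothelial genes were near 0 in inguinal fat and present in every epididymal library. Of 14 mesothelial markers tested, 10 fell (0.31% of all genes) and 4 did not pass. The median log2 fold change was −6.10, and in 13 every IWAT library lay below every EWAT library, as did 12.7% of all genes. Their summed level was 33.4, 26.8 and 25.3 CPM in IWAT, against 398, 230 and 185 CPM in EWAT. Most of the IWAT sum came from Cldn15, a tight junction claudin with 27.3, 18.8 and 20.6 CPM in IWAT, against 17.7, 9.80 and 12.5 CPM in EWAT. Wt1, the Wilms tumour transcription factor of mesothelium and visceral fat progenitors (chromosome 2, 105126529 to 105173616), had 0, 0.0596 and 0.164 CPM in IWAT, against 31.6, 40.4 and 21.9 CPM in EWAT. The difference amounted to −8.59 in log2 units (SE 0.63, adjusted p = 0.00848). Upk3b, a uroplakin family membrane protein of mesothelium, had 0, 0.119 and 0.109 CPM in IWAT, against 55.8, 23.7 and 18.8 CPM in EWAT. By edgeR, the log2 fold change was −8.65 (SE 0.79) at adjusted p = 0.017. Krt8, a keratin of simple epithelia, had 0, 0.179 and 0.109 CPM in IWAT, against 44.2, 34.8 and 23 CPM in EWAT. The log2 fold change was −8.40 (SE 0.63, adjusted p = 0.00878). Its partner Krt18 had 0, 0.119 and 0.273 CPM in IWAT, against 27, 14.2 and 9 CPM in EWAT. The fitted log2 fold change, −6.93 (SE 0.85), had an adjusted p of 0.0346.

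Upk1b, another uroplakin, had 0, 0.119 and 0 CPM in IWAT, against 31, 15.4 and 12.8 CPM in EWAT. With 2 counts in IWAT and 1146 in EWAT, the level in EWAT was 517 times that in IWAT (95% counting interval 143 to 4277, exact). Bnc1, a zinc finger factor of mesothelium and squamous epithelium, had 0, 0.0596 and 0.109 CPM in IWAT, against 17.4, 9.71 and 10.2 CPM in EWAT. Its 3 counts in IWAT and 725 in EWAT gave a ratio of EWAT to IWAT of 218 (74.4 to 1060). The adjusted p was 0.0211 for Upk1b and 0.0157 for Bnc1. Gata5, a zinc finger factor of visceral mesoderm, had 0, 0.119 and 0.109 CPM in IWAT, against 6.25, 2.67 and 3.46 CPM in EWAT. Its log2 fold change was −5.66 with an SE of 0.77 (adjusted p = 0.0422). Msln, which encodes mesothelin and was chosen after its values were seen, had 0.108, 0.537 and 0.437 CPM in IWAT, against 27.2, 13.5 and 11.5 CPM in EWAT. On the log2 scale the difference was −5.58 (SE 0.63, adjusted p = 0.0296). Lrrn4, a leucine-rich repeat membrane protein, and Krt19, a simple epithelial keratin, both chosen after their values were seen, fell as well, with log2 fold changes of −4.48 and −4.36. Krt7, a keratin listed with the epidermal and mammary markers, had 0.325, 0.298 and 0.655 CPM in IWAT, against 12, 13.5 and 6.55 CPM in EWAT. The fitted log2 difference was −4.62 (SE 0.49, adjusted p = 0.0231). Of 12 visceral developmental genes tested, 3 fell (0.31% of all genes), 9 did not pass and the median was −1.57. The 3 were Wt1, Bnc1 and Gata5, the first 2 also mesothelial markers. The Bnc1 promoter is shown as an example of these genes. The RefSeq window is chr7:81992250-81992549, minus strand, GRCm38.p6. Its 83.3% G and C bases hold 6 matches to the GC box GGGCGG, read on both strands and given in capitals.
Bnc1: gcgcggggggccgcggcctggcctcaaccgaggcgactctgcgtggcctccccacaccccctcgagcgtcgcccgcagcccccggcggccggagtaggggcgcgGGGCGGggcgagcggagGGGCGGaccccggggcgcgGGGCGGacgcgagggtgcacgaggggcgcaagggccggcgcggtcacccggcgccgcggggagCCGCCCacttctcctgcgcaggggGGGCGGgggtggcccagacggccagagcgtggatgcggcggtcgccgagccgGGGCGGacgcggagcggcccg

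Levels of epididymal and germ cell genes differed between the EWAT libraries and were near 0 in IWAT. Crisp1, a secreted protein of the epididymis, had 0, 0 and 0 CPM in IWAT, against 1197, 0 and 0.373 CPM in EWAT. Spink8, an epididymal protease inhibitor, held 304 CPM in EWAT replicate 1 and at most 0.266 CPM in any other library. Adam7, a metalloprotease-like protein of the epididymis, held 226 CPM and Rnase9 49.6 CPM in EWAT replicate 1. EWAT replicate 2 held germ cell transcripts instead. Prm1, a protamine of sperm chromatin, had 0, 0.119 and 0 CPM in IWAT, against 0.111, 57.5 and 4.69 CPM in EWAT. Prm2 had 0, 0.0596 and 0.0546 CPM in IWAT, against 0.0553, 99.5 and 9.48 CPM in EWAT, and Ddx4, a germ cell RNA helicase, had 0.108, 0.0596 and 0.109 CPM in IWAT, against 0.442, 29.1 and 11.6 CPM in EWAT. Odf1, a sperm tail protein, was listed at 0 counts in all IWAT libraries and held 0.553, 20.6 and 19.9 CPM in EWAT (adjusted p = 0.135), which is at least 76.6-fold higher in EWAT against the per-library floor of 3 counts. These genes moved with the same groups as the mesothelial and keratin genes. Without EWAT replicate 1, 101 of the 102 calls were kept, the called mesothelial genes named above among them, with log2 fold changes of −8.59 for Wt1, −8.02 for Upk3b and −8.17 for Krt8. The germ cell part of EWAT replicates 2 and 3 was not tested. Without EWAT replicate 2, adjusted p for the mesothelial and keratin genes named here with their fold changes or counts rose to between 0.0902 and 0.133, with no direction changed, and without IWAT replicate 2 to between 0.137 and 0.324. Of these 11 calls, 8 were also lost without IWAT replicate 1 (Wt1, Krt8 and Bnc1 kept) and 8 without EWAT replicate 3 (Wt1, Upk3b and Krt8 kept).

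**Figure D2:**
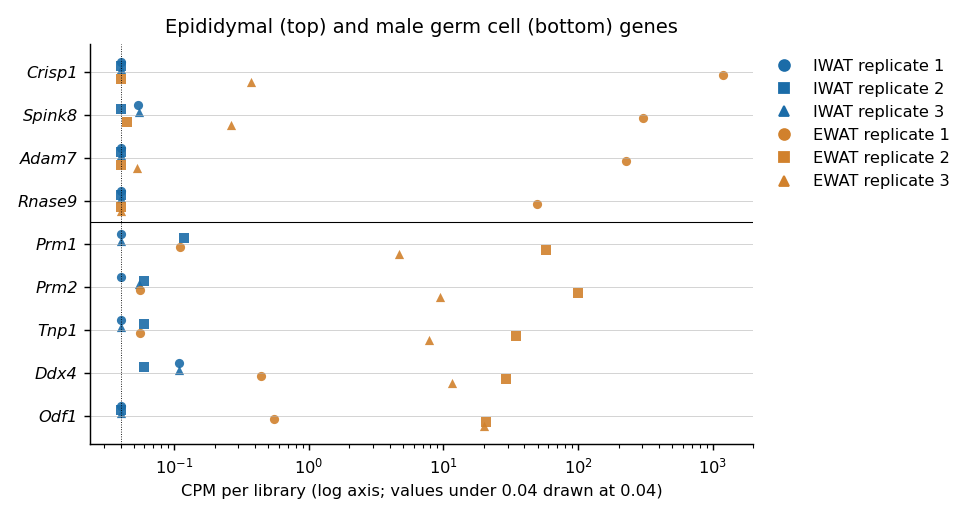
CPM per library on a log axis for 4 epididymal genes (top) and 5 male germ cell genes (bottom), with IWAT libraries in blue above EWAT libraries in orange. EWAT replicate 1 carries the epididymal genes, with Crisp1 at 1197 CPM, EWAT replicates 2 and 3 carry the germ cell genes, and the IWAT libraries stay at or near 0.

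Secreted and matrix genes differed in both directions. Mmp3, stromelysin, a metalloproteinase that cleaves matrix proteins (chromosome 9, 7445822 to 7455975), had 57.1, 54.6 and 79.9 CPM in IWAT, against 0.995, 1.16 and 1.22 CPM in EWAT. IWAT differed from EWAT by 5.82 on the log2 scale (SE 0.26, adjusted p = 0.002). It was the gene with the lowest adjusted p of all 18086, IWAT replicate 3 held its highest level, and it was called in 15 of 16 alternatives; without EWAT replicate 2 its adjusted p was 0.0503. It was the single called member of 21 metalloproteinase and TIMP genes tested. Apod, the lipid carrier apolipoprotein D, had 60.4, 55.4 and 32.4 CPM in IWAT, against 2.99, 4.1 and 2.24 CPM in EWAT. In the fit the log2 fold change came to 3.98 (SE 0.35, adjusted p = 0.0157). Ly6c1, a surface antigen of endothelial and stromal progenitor cells, had 92.6, 112 and 99.7 CPM in IWAT, against 24.4, 27.8 and 28.2 CPM in EWAT. The fit put the log2 fold change at 1.92 (SE 0.15, adjusted p = 0.0124). It was the only one of 23 adipocyte progenitor markers to pass, and 22 did not. Pi16, a marker of interstitial progenitors chosen after its values were seen, had 89.4, 224 and 49.9 CPM in IWAT, against 11.9, 9.75 and 11.8 CPM in EWAT and did not pass (adjusted p = 0.0623). Pdgfra, the receptor that marks adipocyte progenitors at large, had 169, 187 and 241 CPM in IWAT, against 137, 157 and 164 CPM in EWAT (log2 fold change 0.38, adjusted p = 0.295). The Mmp3 promoter, chr9:7445572-7445871, plus strand, GRCm38.p6, is shown because this gene kept its difference in more alternatives than any other named here. Capitals mark 1 match to the AP-1 motif TGANTCA and 2 overlapping matches to TATANA, read on both strands. The AP-1 match is at position −46 from the start and the TATANA matches at −9 and −7.
Mmp3: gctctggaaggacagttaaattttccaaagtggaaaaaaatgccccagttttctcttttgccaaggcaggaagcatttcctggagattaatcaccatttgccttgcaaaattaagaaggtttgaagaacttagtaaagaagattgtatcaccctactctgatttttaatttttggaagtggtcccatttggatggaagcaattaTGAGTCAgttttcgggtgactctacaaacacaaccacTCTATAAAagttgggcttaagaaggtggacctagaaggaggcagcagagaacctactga

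Of 27 collagen genes tested, 2 fell (0.31% of all genes), 0 rose (0.254%) and 25 did not pass (median −0.09). Col6a5, a chain of the microfibril collagen VI, had 6.01, 2.15 and 10.3 CPM in IWAT, against 334, 197 and 179 CPM in EWAT. The difference amounted to −5.26 in log2 units (SE 0.62, adjusted p = 0.0308). Col4a6, a chain of basement membrane collagen IV, had 0.867, 1.31 and 0.983 CPM in IWAT, against 26, 18.8 and 19.4 CPM in EWAT. By edgeR, the log2 fold change was −4.34 (SE 0.29) at adjusted p = 0.00848. Every EWAT library was above every IWAT library for both. Wnt4, a secreted Wnt ligand, had 3.2, 3.34 and 4.09 CPM in IWAT, against 23.4, 19.2 and 14.4 CPM in EWAT. The log2 fold change was −2.42 (SE 0.27, adjusted p = 0.0263). Rspo1, an R-spondin that strengthens Wnt signalling and also a mesothelial marker, had 0.704, 0.835 and 0.382 CPM in IWAT, against 6.64, 4.9 and 4.63 CPM in EWAT. The fitted log2 fold change, −3.06 (SE 0.41), had an adjusted p of 0.0422. These 2 were the called members of 18 Wnt ligands and modulators, of which 16 did not pass. Of all genes, 0.31% were called lower. Pkhd1l1, a large fibrocystin-like membrane protein, had 2.82, 2.33 and 1.31 CPM in IWAT, against 132, 34.2 and 52.6 CPM in EWAT, so that EWAT replicate 1 was the highest. Its log2 fold change was −5.08 with an SE of 0.62 (adjusted p = 0.0346).

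Other called genes came from several lists or from none. Des, the muscle intermediate filament desmin, had 15.7, 15.6 and 16.9 CPM in IWAT, against 41.6, 46.9 and 45.7 CPM in EWAT. On the log2 scale the difference was −1.48 (SE 0.15, adjusted p = 0.023). It alone passed among 12 smooth muscle and pericyte markers. Mgp, matrix Gla protein, an inhibitor of calcification, had 9.32, 12 and 15.2 CPM in IWAT, against 50.2, 37.7 and 61.9 CPM in EWAT. The fitted log2 difference was −2.03 (SE 0.27, adjusted p = 0.0422). Nav2, a neuron navigator protein, and Unc5b, a netrin receptor, had log2 fold changes of −1.67 and −1.60. Chst4, a sulfotransferase of high endothelial venules, had 1 count in IWAT and 67 in EWAT, a ratio of EWAT to IWAT of 60.5 (10.5 to 2424), with adjusted p = 0.0464. On the higher side, Cadm3, a cell adhesion molecule, Nova1, a neuronal splicing factor, and Galnt16, a glycosyltransferase, had log2 fold changes of 2.76, 2.60 and 2.44. Cdh19, a cadherin of the Schwann cell lineage, had 14.8, 12 and 3.6 CPM in IWAT, against 0.442, 0.579 and 0.32 CPM in EWAT. IWAT differed from EWAT by 4.48 on the log2 scale (SE 0.63, adjusted p = 0.0458). It was the only one of 12 Schwann cell markers tested to pass.

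**Figure D3:**
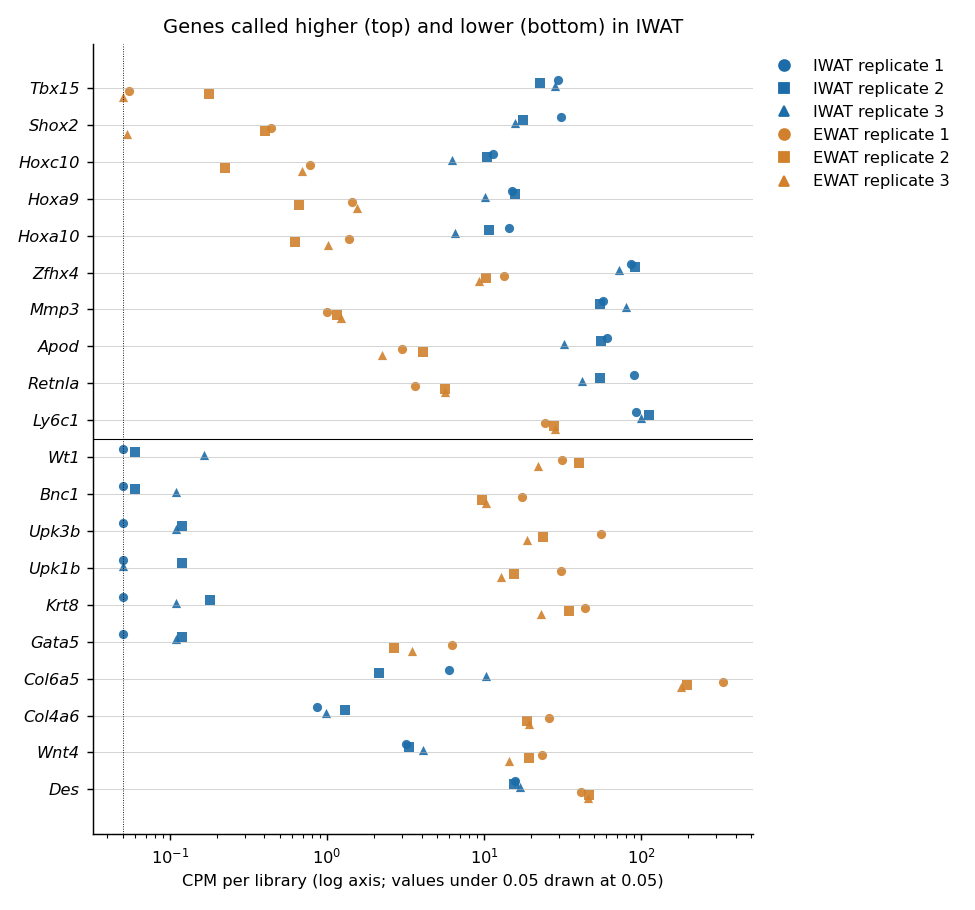
CPM per library on a log axis for 10 genes called higher (top) and 10 called lower (bottom) in IWAT, with IWAT in blue above EWAT in orange and a marker shape per replicate; values under 0.05 CPM are drawn at 0.05. No gene has overlapping groups, and IWAT replicate 3 lies with the other IWAT libraries. The genes were picked from the calls on all 6 libraries, none of which overlapped, so its place here is largely set by that choice.

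Major urinary protein genes were expressed in inguinal fat and all but missing in epididymal fat. These are lipocalins that carry pheromones, made mostly by the liver. Of 21 family members in the files 11 were tested, 6 rose (0.254% of all genes) and 5 did not pass. Their summed level was 4163, 3691 and 795 CPM in IWAT, against 1.33, 2.89 and 0.373 CPM in EWAT. Mup10 (chromosome 4, 60578260 to 60582199) had 2039, 1671 and 461 CPM in IWAT, against 0, 0.267 and 0 CPM in EWAT. In the fit the log2 fold change came to 13.69 (SE 1.22, adjusted p = 0.0157). Mup14 had 747, 776 and 116 CPM in IWAT, against 0.221, 0.445 and 0.0533 CPM in EWAT. The fit put the log2 fold change at 11.06 (SE 1.12, adjusted p = 0.023). Mup9 had 850.3, 771 and 135 CPM in IWAT, against 0.719, 0.98 and 0 CPM in EWAT. The difference amounted to 9.97 in log2 units (SE 1.26, adjusted p = 0.0394). Mup11 and Mup16 had no count in any EWAT library, and held 54.0, 85.1 and 31.5 CPM and 189, 138 and 31.3 CPM in IWAT. That is at least 343-fold higher for Mup11 and at least 720-fold higher for Mup16 against a floor of 3 counts per library, with adjusted p = 0.0231 and 0.0481. Mup1, chosen after its values were seen, had 36.1, 114 and 8.84 CPM in IWAT and at most 0.223 CPM in EWAT (adjusted p = 0.0464); without EWAT replicate 1 its adjusted p was 0.0521.

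The members of this family share much of their sequence, so reads are divided between near-identical copies and single-gene levels are uncertain. The deposited posterior standard deviation, summed over the 6 libraries, was 0.869% of the count for Mup10, 1.7% for Mup14 and 8.33% for Mup11. It was 1.61% for Mup9, 2.82% for Mup16 and 9.15% for Mup1. All 6 calls were lost without IWAT replicate 2 and without EWAT replicate 2 (adjusted p up to 0.324 and 0.208). All 6 were also lost without EWAT replicate 3 (adjusted p up to 0.172), and 5 of the 6, Mup10 excepted, without IWAT replicate 1 (up to 0.173). The promoters of Mup10 (chr4:60582106-60582405) and Mup9 (chr4:60421903-60422202), both on the minus strand of GRCm38.p6, are shown because they show the likeness. Over 301 aligned positions 283 were identical, 94.0%, and over the 6 pairs among Mup9, Mup10, Mup11 and Mup14 identity ran from 91.1% to 97.4%. Capitals mark the TATA motif match.
Mup10: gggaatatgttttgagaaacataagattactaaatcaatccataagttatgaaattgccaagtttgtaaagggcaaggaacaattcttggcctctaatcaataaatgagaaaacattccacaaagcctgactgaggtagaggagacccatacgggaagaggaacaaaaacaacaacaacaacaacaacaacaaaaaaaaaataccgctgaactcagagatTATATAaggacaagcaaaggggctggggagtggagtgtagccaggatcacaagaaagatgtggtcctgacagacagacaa
Mup9: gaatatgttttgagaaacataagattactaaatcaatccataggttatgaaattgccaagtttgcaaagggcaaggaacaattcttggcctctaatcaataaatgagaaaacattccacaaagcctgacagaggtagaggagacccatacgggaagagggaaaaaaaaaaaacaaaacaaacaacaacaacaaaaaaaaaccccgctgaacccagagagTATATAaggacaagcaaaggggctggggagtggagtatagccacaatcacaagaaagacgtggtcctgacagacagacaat

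A few thermogenic genes rose in inguinal fat, with the highest levels in IWAT replicates 1 and 2. Of 23 thermogenic and brown or beige adipocyte genes tested, 3 rose (0.254% of all genes) and 20 did not pass. The median log2 fold change was 2.18. Without IWAT replicate 3, 17 of 26 rose (13.5% of all genes) and the median was 2.64. Ucp1, the uncoupling protein that lets mitochondria make heat (chromosome 8, 83290352 to 83298452), had 51.7, 139.7 and 22.4 CPM in IWAT, against 0, 0.0891 and 0.0533 CPM in EWAT. With 3 counts over the EWAT libraries and 3709 over IWAT, the ratio of IWAT to EWAT was 1369 (95% counting interval 468 to 6644, exact), and the adjusted p was 0.0231. Cox8b, the cytochrome c oxidase subunit isoform of muscle and brown fat, had 111, 144 and 14.2 CPM in IWAT, against 0.553, 0.134 and 0.426 CPM in EWAT. By edgeR, the log2 fold change was 7.93 (SE 1.08) at adjusted p = 0.0422. Otop1, a proton channel enriched in brown fat, had 88.7, 53.6 and 6.5 CPM in IWAT, against 0.111, 0.0891 and 0.16 CPM in EWAT. The log2 fold change was 8.63 (SE 1.19, adjusted p = 0.0442). For these 3 genes IWAT replicate 3 was the lowest IWAT library and still above every EWAT library. Cidea, a lipid droplet protein of brown and beige adipocytes chosen after its values were seen, had 113, 126 and 11.6 CPM in IWAT, against 0.111, 3.92 and 0 CPM in EWAT and did not pass (adjusted p = 0.141; 0.0243 without IWAT replicate 3). The 3 calls were lost without IWAT replicates 1 or 2 and without EWAT replicates 2 or 3 (adjusted p up to 0.292). The Ucp1 promoter, chr8:83290098-83290397, plus strand, GRCm38.p6, is shown because Ucp1 defines beige cells. Capitals mark 2 overlapping matches to TATANA, at positions −28 and −26 from the start.
Ucp1: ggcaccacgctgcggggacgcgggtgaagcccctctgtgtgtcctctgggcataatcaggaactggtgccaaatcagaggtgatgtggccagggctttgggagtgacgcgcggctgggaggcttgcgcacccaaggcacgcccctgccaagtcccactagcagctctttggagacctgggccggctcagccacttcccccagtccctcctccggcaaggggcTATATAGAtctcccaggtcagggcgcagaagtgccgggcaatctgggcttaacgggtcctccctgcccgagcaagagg

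RefSeq promoters were matched for 61 of the 102 called genes. The TATANA motif was in 13 of 27 promoters of genes higher in IWAT (48.1%, 4 of the 13 being Mup genes), in 7 of 34 of those lower (20.6%), and in 25.4% of all 27025. GGGCGG was in 33.3% of the higher, 64.7% of the lower and 35.9% of all. TGANTCA was in 14.8%, 5.88% and 7.93%. These are shares of windows holding the letters on either strand, with no test, and say nothing of binding.

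Adipocyte metabolic genes were much higher in IWAT replicates 1 and 2 than in EWAT, and IWAT replicate 3 lay closer to EWAT. Whether they passed depended on the test: none did with edgeR on all 6 libraries, and most did with DESeq2 on the same libraries, which called 2085 genes (11.5%), 1242 of them higher (6.87%) and 843 lower (4.66%). Of 25 lipogenesis genes, 0 passed, with 21 at an unadjusted p under 0.05 (21.6% of all genes) and a median log2 fold change of 2.46. DESeq2 called 17 of the 25 higher, and without IWAT replicate 3, 21 rose in edgeR (13.5% of all genes). Adipocyte markers were among the values that singled out that library, so counts of adipocyte genes without it only describe them. Their summed level was 123625, 66491 and 13006 CPM in IWAT, against 10048, 9575 and 4867 CPM in EWAT. Fasn, fatty acid synthase, had 34482, 16388 and 2120 CPM in IWAT, against 1340, 1047 and 328 CPM in EWAT. The fitted log2 fold change, 4.29 (SE 1.11), had an adjusted p of 0.135, and without IWAT replicate 3 the values were 4.83 and 0.0136. The adjusted p of DESeq2 was 6.23e-05. Fasn also differed between replicates of the other depots. On the scale of all 12 libraries it had 20804, 250 and 550 CPM in RWAT and 55177, 32584 and 8260 CPM in BAT. Scd1, which desaturates the fatty acids made, had 53886, 30663 and 7039 CPM in IWAT, against 5761, 5720 and 2825 CPM in EWAT (adjusted p = 0.16; 0.0158 without IWAT replicate 3 and 0.00231 with DESeq2). Pck1, the enzyme of glyceroneogenesis, chosen after its values were seen, had 3044, 3564 and 669.6 CPM in IWAT, against 88.1, 249 and 127 CPM in EWAT (adjusted p = 0.0785; 0.00675 without IWAT replicate 3 and 2.21e-07 with DESeq2). Of the 20 genes named in the text that were tested and did not pass, DESeq2 called 15, edgeR with a replicate block 4 (background 1.3% of all genes, 0.791% higher and 0.509% lower) and limma-voom with quality weights, added after the data were seen, 18 (background 41.6%, 21.6% higher and 20% lower).

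The same held for the genes of mitochondrial fuel use. Over all genes, DESeq2 called 6.87% higher, and without IWAT replicate 3, 13.5% were called higher and 6.8% lower. Of 54 nuclear-encoded oxidative phosphorylation genes, 0 passed, DESeq2 called 40 higher, and 53 rose without IWAT replicate 3. Atp5b, the catalytic subunit of ATP synthase, had 2780, 2079 and 635 CPM in IWAT, against 581, 639 and 565 CPM in EWAT (log2 fold change 1.62, adjusted p = 0.165). Of 24 fatty acid oxidation genes, 0 passed, DESeq2 called 19 higher, and 22 rose and 1 fell without IWAT replicate 3. Hadha, of the mitochondrial trifunctional protein, had 611, 535 and 191 CPM in IWAT, against 149, 168 and 169 CPM in EWAT (adjusted p = 0.151; 0.00483 without IWAT replicate 3). Of 20 genes of branched-chain amino acid breakdown, 0 passed, DESeq2 called 16 higher and 19 rose without IWAT replicate 3. Of 13 mitochondrially encoded mRNAs, 0 passed, DESeq2 called 9 higher and 12 rose without it. The mitochondrial share was also among the values that singled out IWAT replicate 3, so this count only describes these mRNAs. The mRNA of mt-Co1, a cytochrome c oxidase subunit, had 19742, 18603 and 7284 CPM in IWAT, against 6348, 6291 and 5856 CPM in EWAT.

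Of 14 general adipocyte markers, 0 passed, DESeq2 called 11 higher and 13 rose without IWAT replicate 3. These markers were among the values by which IWAT replicate 3 was singled out, so the count without it only describes them. Among all genes, DESeq2 called 6.87% higher and 4.66% lower. Without IWAT replicate 3, 13.5% of all genes were called higher and 6.8% lower. Adipokine genes were less uniform: of 19 tested, 0 passed, 14 had a positive and 5 a negative log2 fold change, DESeq2 called 5 higher and 2 lower, and without IWAT replicate 3, 9 rose and 2 fell. Adipoq, which encodes adiponectin, had 2117, 1956 and 555 CPM in IWAT, against 538, 666 and 317 CPM in EWAT (adjusted p = 0.18; 0.0167 without IWAT replicate 3). Fabp4, the fatty acid carrier of adipocytes, had 10332, 8073 and 2973 CPM in IWAT, against 2285, 2151 and 1777 CPM in EWAT (adjusted p = 0.151). Pparg, the master factor of adipocyte differentiation, had 283, 225 and 94.4 CPM in IWAT, against 76.4, 62.9 and 53.4 CPM in EWAT (adjusted p = 0.128; 0.00567 without IWAT replicate 3). Adrb3, the adrenergic receptor that drives lipolysis, had 178, 207 and 39.7 CPM in IWAT, against 48.8, 45.6 and 28.7 CPM in EWAT (adjusted p = 0.168; 0.00702 without IWAT replicate 3). Lep, which encodes leptin, had 776, 239 and 54.5 CPM in IWAT, against 187, 153 and 62.5 CPM in EWAT, with overlapping groups, IWAT replicate 3 below every EWAT library, and no call with or without IWAT replicate 3 (adjusted p = 0.384 and 0.0847). Cfd, which encodes the secreted protease adipsin, had 9797, 10643 and 2205 CPM in IWAT, against 895, 1819 and 487 CPM in EWAT (adjusted p = 0.142; 0.019 without IWAT replicate 3).

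**Figure D4:**
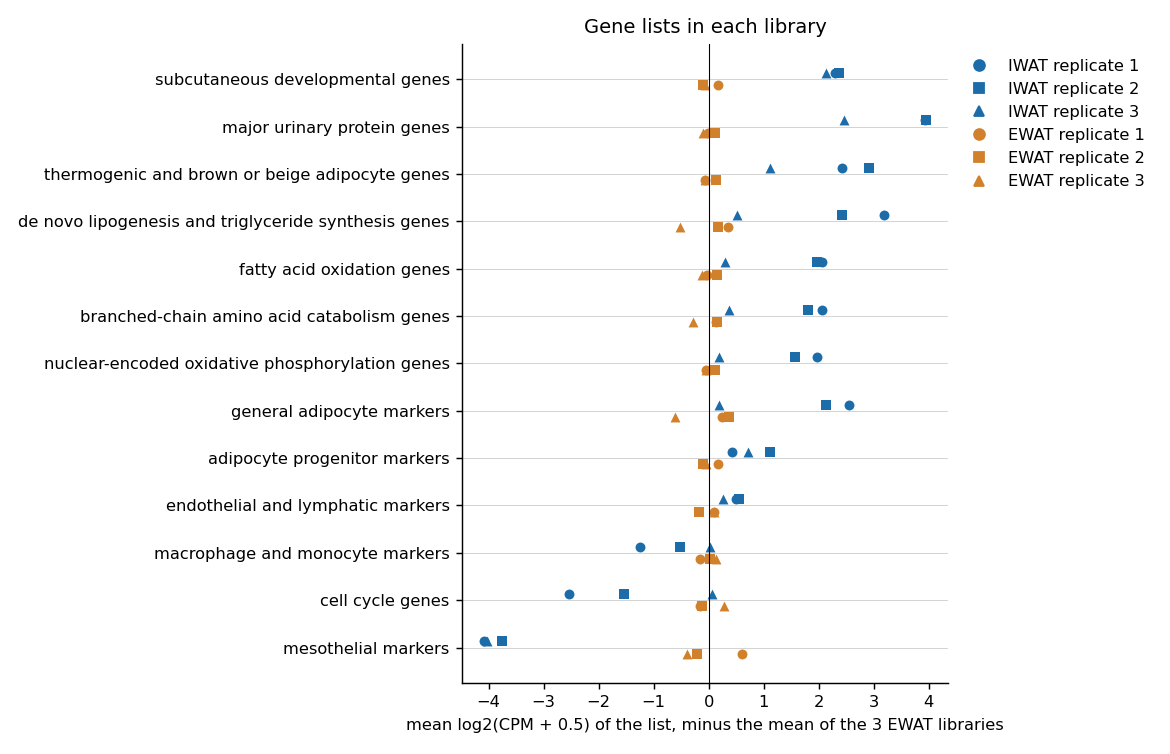
Mean log2(CPM + 0.5) of 13 gene lists in each library, minus the mean of the 3 EWAT libraries, with IWAT in blue above EWAT in orange. IWAT replicate 3 (blue triangle) lies with the other IWAT libraries for subcutaneous developmental and mesothelial genes, and near the EWAT libraries for oxidative phosphorylation, general adipocyte, macrophage and cell cycle genes.

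Genes called from IWAT replicates 1 and 2 against EWAT alone show where IWAT replicate 3, which that choice did not use, lay. Of the 2658 higher genes, IWAT replicate 3 was above every EWAT library in 1305 (49.1%). Its difference from EWAT was taken gene by gene as a share of that of the mean of IWAT replicates 1 and 2. The median of this share was 11.6%. Of the 1340 lower genes it was below every EWAT library in 750 (55.97%), with a median of 24%. The median share kept was 82.7% for 10 subcutaneous developmental genes and 101% for 13 mesothelial markers. It was 30.8% for 17 thermogenic genes, 19.99% for 21 lipogenesis genes, 9.06% for 53 oxidative phosphorylation genes and −3.61% for 16 cell cycle genes. Differences were taken on the log2(CPM + 0.5) scale against the same EWAT libraries, and these shares are a description with no test.

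**Figure D5:**
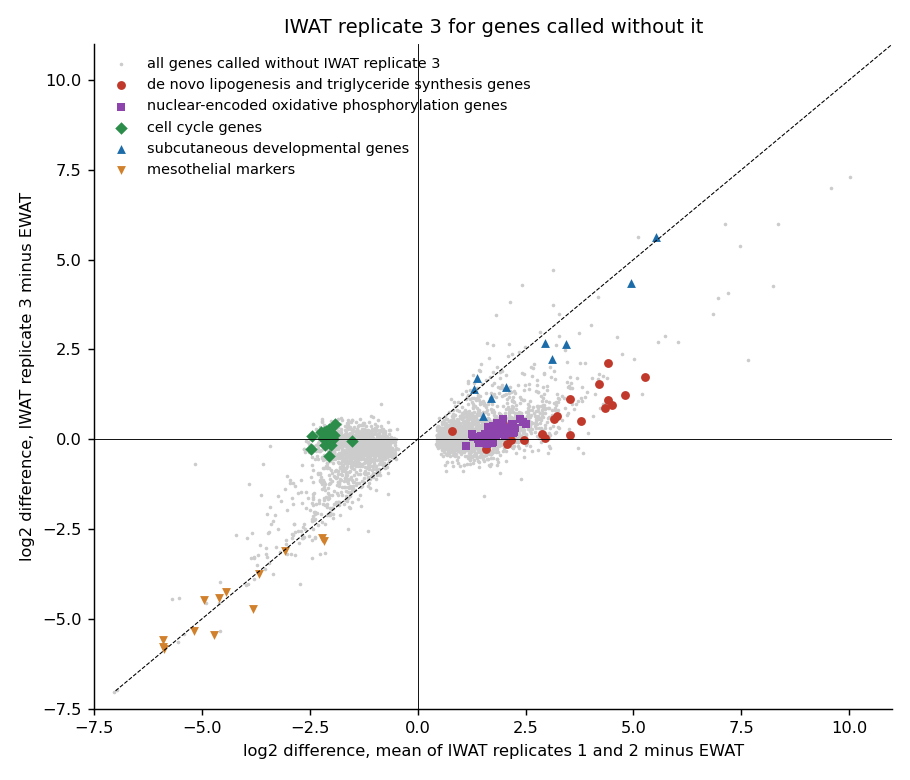
For the 3998 genes called without IWAT replicate 3, the log2 difference of IWAT replicate 3 from the EWAT mean (vertical) against that of IWAT replicates 1 and 2 (horizontal), on the log2(CPM + 0.5) scale; the dashed line marks equal differences. Subcutaneous developmental and mesothelial genes lie along the line, and lipogenesis, oxidative phosphorylation and cell cycle genes lie near a vertical difference of 0 or well short of the line.

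Most macrophage markers and cell cycle genes ran the other way in IWAT replicates 1 and 2. The summed level of 25 macrophage and monocyte markers was 2339, 4562 and 7291 CPM in IWAT, against 7685, 10001 and 11789 CPM in EWAT. Of these 25 genes 1 rose (0.254% of all genes), 0 fell (0.31%) and 24 did not pass. Over the 6 libraries 17 had a negative and 8 a positive log2 fold change, against 9173 and 8913 of all 18086 genes. Without IWAT replicate 3, 9 fell and 1 rose, against 6.8% and 13.5% of all genes. Adgre1, which encodes the macrophage antigen F4/80, had 85.2, 158 and 396 CPM in IWAT, against 386, 433 and 520.4 CPM in EWAT (adjusted p = 0.29; 0.0179 without IWAT replicate 3). Gpnmb, a glycoprotein of lipid-laden macrophages chosen after its values were seen, had 111, 193 and 595 CPM in IWAT, against 516, 576 and 1412 CPM in EWAT (adjusted p = 0.271; 0.0367 without IWAT replicate 3). Cx3cr1, the fractalkine receptor, also chosen after its values were seen, had 2.44, 5.43 and 9.06 CPM in IWAT, against 21.3, 32.8 and 24.3 CPM in EWAT (adjusted p = 0.102; 0.0137 without IWAT replicate 3). The 1 gene that rose was Retnla, a resistin-like secreted protein of alternatively activated macrophages, with 89.8, 54.4 and 42 CPM in IWAT, against 3.65, 5.66 and 5.65 CPM in EWAT. Its log2 fold change was 3.64 with an SE of 0.36 (adjusted p = 0.0223). Ccl11, the eosinophil chemokine eotaxin, rose as the only called member of 23 chemokines, with 28.6, 28.5 and 16.2 CPM in IWAT, against 4.37, 6.24 and 5.38 CPM in EWAT. On the log2 scale the difference was 2.19 (SE 0.30, adjusted p = 0.0422). These calls of Retnla and Ccl11 were lost without IWAT replicate 2 (adjusted p = 0.157 and 0.299) and EWAT replicate 2 (adjusted p = 0.118 and 0.17), both also without EWAT replicate 3 (adjusted p = 0.0866 and 0.153), and Ccl11 without IWAT replicate 1 (adjusted p = 0.158). Of 18 cell cycle genes 0 passed, with 2 at an unadjusted p under 0.05 (21.6% of all genes). DESeq2 called 0 of them (11.5% of all genes), and 16 fell without IWAT replicate 3 (6.8% of all genes). Mki67, a protein of dividing cells, had 35.4, 80.0 and 319 CPM in IWAT, against 265, 201 and 363 CPM in EWAT (adjusted p = 0.492; 0.0244 without IWAT replicate 3). The part that adipocyte, macrophage and mitochondrial RNA shares, which differ between IWAT replicates, played in the lists above was not tested.

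The ribosomal protein gene Rps16 and its processed pseudogene Rps16-ps2 were also lower. Rps16 had 22.5, 15.6 and 18 CPM in IWAT, against 80.7, 98.3 and 93.4 CPM in EWAT. The fitted log2 difference was −2.28 (SE 0.19, adjusted p = 0.0147). Its pseudogene Rps16-ps2 had 20.6, 18 and 15 CPM in IWAT, against 96.4, 108 and 105 CPM in EWAT; it was chosen after its values were seen. All 441 bases of the Rps16-ps2 transcript were identical to part of the Rps16 transcript in GENCODE M21, so reads from that stretch cannot be assigned to one of them by sequence. The posterior standard deviation was 2.44% of the count for Rps16 and 2.21% for Rps16-ps2. On the scale of all 12 libraries, Rps16 held 16.97, 24.8 and 24.7 CPM in RWAT and 64.6, 55.5 and 81.6 CPM in BAT, so that RWAT lay near IWAT and BAT near EWAT. The labels name no batch, and a batch that divided the depots in this way and the depots themselves cannot be told apart.

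The called genes were also placed against the other depots. Each depot was placed by the log2 level of its mean CPM, not by a mean of log2 levels. Where replicates of a depot differ widely, a high library can therefore set the placement. Of the 46 genes higher in IWAT, RWAT was nearer to IWAT for 32 and nearer to EWAT for 14. For the same 46 genes, BAT was nearer to IWAT for 41 and to EWAT for 5. Of the 56 lower genes, RWAT was nearer to IWAT for 18 and to EWAT for 38, and BAT nearer to IWAT for 50 and to EWAT for 6. Tbx15, for example, held 4.35, 6.40 and 21.9 CPM in RWAT and 36.8, 38.3 and 24.7 CPM in BAT on the 12-library scale. Wt1 held 4.05, 10.99 and 34.7 CPM in RWAT and at most 0.0654 CPM in BAT. Mup10 held 35.7, 1.35 and 6.25 CPM in RWAT and 123, 204 and 279 CPM in BAT. No test was made of these placements. The same shares over all genes are not given here, so the counts only describe the called genes.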

How the data were processed

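RNA-seq of total RNA depleted of ribosomal RNA was read as single-end 75-base reads, per the labels' protocols. The submitters' processing notes name GRCm38.p4 as the build and the tools RSEM 1.3.0, Trimmomatic 0.36 and DESeq2 1.10.1; annotation and strand setting: not given in the sources used here. Per the file headers, the authors deposited expected counts per gene, not normalised, with a posterior standard deviation of each count and the authors' TPM, which was not tested. Genes (47729, of which 47310 identifiers matched GENCODE M21 on GRCm38) take their positions from that annotation.

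Estimated counts were rounded to whole numbers, filtered with filterByExpr and scaled by TMM (edgeR 4.0.16, limma 3.58.1, R 4.3.3). The test was edgeR's quasi-likelihood test on the 6 libraries with no covariate, adjusted by Benjamini-Hochberg over all genes tested. A log2 fold change is IWAT minus EWAT; the SE is its size over the root of F. Without strand, overlapping antisense genes cannot be told apart. No 2 libraries of a depot held identical values or agreed within sampling noise.

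Alternatives were DESeq2 1.42.0, limma-voom, other scalings and filters, all 12 libraries in 1 fit, a replicate block, no mitochondrial genes and each library left out. The genes and 44 gene lists were chosen with earlier results of these data known. Genes named are 12 core genes; up to 10 of the largest changes each way among called, annotated genes that average at least 3 in log2 CPM and do not overlap; the 3 largest called changes each way in a list or, with none called, its 2 highest members; and defining cell type markers. Others are said to be chosen after their values were seen.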

Additional observations from a re-analysis of the deposited data

How the results depend on the processing

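All 49 called genes named kept their direction under the 16 alternatives, and so did the 20 named genes that were tested and not called, wherever an alternative tested them. The calls held less well. Of the 49, 49 were kept with DESeq2, 42 without TMM, 33 with limma-voom and 27 with all 12 libraries in 1 fit. That last edgeR fit lost Ucp1, Cox8b and Otop1 among others (adjusted p = 0.0772, 0.075 and 0.0788). The count of 102 calls (46 higher, 56 lower) did not keep its size. DESeq2 called 2085 (1242 higher, 843 lower, 102 shared) and limma-voom 70 (27 and 43). All 12 libraries in 1 fit gave 66 (38 and 28), 46 of them shared. Leaving out each library in turn gave 0 to 3998 calls, 0 to 2658 higher and 0 to 1340 lower; the values for each library stand beside the count in the report. The cause was not tested. Quality weights in limma-voom, an alternative added once the data had been seen, called 7524 (3905 and 3619) and gave IWAT replicates 1, 2 and 3 weights of 0.528, 8.92 and 0.219. RLE scaling gave 102 calls, no TMM 93 (35 and 58, with the median of all genes at −0.313), no filter 95, a filter of 1 CPM in 3 libraries 99, and no mitochondrial genes 102. With the replicate number as a block, 235 genes were called (143 higher, 92 lower, 82 shared); the calls of Tbx5, Gata5 and Chst4 were lost (adjusted p = 0.0512, 0.051 and 0.0514) and Fasn, Cfd, Cidea and Odf1 were called. The labels do not say that the numbers pair samples. Deviations of same-numbered libraries correlated at 0.0965, 0.135 and 0.364, not all over 0.1, and those of differently numbered ones at −0.34 to −0.0226 in 5 pairs and 0.181 in 1; IWAT replicates 2 and 3 correlated best with their own number and IWAT replicate 1 with EWAT replicate 2, which is a hint from the data, not from the design. Differences of genes with few counts were limited by depth, at 0.134 to 0.179 CPM (TMM scale) for 3 counts.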
